A study of Mus musculus with 121 samples.

Results

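The boundaries described here are positions at which the Micro-C maps of mouse erythroid progenitor cells in mid-G1 showed a chromatin boundary and the maps of asynchronous cells showed none nearby. They were chosen by distance alone, from the boundary calls of the mid-G1 and asynchronous maps, so the count of them and their distances are descriptions. A mid-G1 boundary, 10 kb long, was kept when it overlapped no boundary of the asynchronous list after it had been widened by 10 kb on each side. The rule kept 2043 of 5508 mid-G1 boundaries, or 37.1% (Wilson 95% interval 35.8% to 38.4%), and these are called mid-G1-only boundaries below. The other 3465 mid-G1 boundaries are called shared, and the 2579 of 6070 asynchronous boundaries (42.5%) that met no mid-G1 boundary under the same rule are called asynchronous-only. Every interval below is a 95% interval that covers counting error only, since each list is single and boundaries are not replicates of a condition.

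G1E-ER4 is a line of GATA1-null, embryonic stem cell-derived erythroid progenitors that carries an inducible GATA1. All Micro-C samples came from a subline in which YY1 carries an auxin-inducible degron, so the untreated samples carry the degron as well. The 8 mid-G1 samples had nocodazole for 7 h and were sorted by flow cytometry after release, 4 with auxin for 4 h and 4 without it. The 10 asynchronous samples were 5 with auxin for 4 h and 5 without it. The boundary lists are merged over auxin and untreated samples, and each domain, the interval between a pair of boundaries, bears a label of auxin, untreated or both. ChIP-seq of CTCF, RAD21, YY1, LDB1 and H3K27ac came from asynchronous cells of the same subline with and without auxin. The lists of YY1 peaks by stage came from another subline, G1E-ER4 MD-mCherry, which had nocodazole for 7 h and no auxin. In the RNA-seq of these asynchronous cells without auxin, 3 libraries of 26011602 to 26210181 counts, the 10 erythroid progenitor markers lay between 73.7 and 405 CPM. The 2 T cell markers were at 0, the B cell, macrophage and embryonic stem cell markers reached at most 0.343 CPM, and the 2 megakaryocyte markers lay between 9.16 and 30.9 CPM.

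Boundaries separate neighbouring domains within which chromatin contacts itself more than it contacts the outside. Many form where cohesin, a ring complex that contains RAD21 and extrudes loops of chromatin, is halted by the DNA-bound protein CTCF, and the maps lose domains and loops in mitosis and rebuild them in G1. YY1 is a zinc finger factor bound mostly at active promoters and enhancers, LDB1 is an adaptor that joins erythroid enhancers and promoters through GATA1 and TAL1 complexes, and H3K27ac marks active promoters and enhancers. An asynchronous culture holds cells of all stages, G1 included.

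Mid-G1-only boundaries lay at all distances beyond the threshold. The nearest asynchronous boundary was between 20 and 3830 kb away, with a median of 90 kb and quartiles of 30 and 240 kb. Just inside the threshold, 319 boundaries lay 20 kb and 2 lay 25 kb from an asynchronous boundary, among them chr1:14020001-14030000, chr1:33900001-33910000 and chr1:35410001-35420000 (mm9, as are all positions below). Just outside it, 5 lay 15 kb and 1135 lay 10 kb away, among them chr2:37675001-37685000, chr7:19460001-19470000 and chr9:50015001-50025000. A distance of 10 kb is 1 step of the 10 kb grid on which most boundaries sit, so the smallest distance inside the threshold is the next step. At the other end, 609 (29.8%) were more than 200 kb from any asynchronous boundary. The nearest asynchronous boundary was itself an asynchronous-only one for 1542 of the 2043 (75.5%). That share was 91.2% at 20 kb, 97.5% above that and up to 50 kb, 88.6% up to 100 kb, 48% up to 200 kb and 60.4% beyond 200 kb. Under the rule, an asynchronous boundary near a mid-G1-only one is asynchronous-only unless another mid-G1 boundary lies close to it. These shares therefore depend on how closely mid-G1 boundaries are spaced, which was not tested.

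They were spread over all 20 chromosomes. The share of mid-G1 boundaries that were mid-G1-only was lowest on chromosome 11 (29.6%) and on chromosome 19 (30.1%), and highest on chromosome 14 (44.5%) and on chromosome 8 (42.9%).

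Of the 5 ChIP-seq marks, every one was less frequent at mid-G1-only than at shared boundaries. The peaks are those of untreated asynchronous cells, and none of these marks was analysed here in mid-G1 cells. A CTCF peak overlapped 455 of the 2043 mid-G1-only boundaries, 22.3% (20.5% to 24.1%), and 54.6% of shared ones, with 42.6% over all mid-G1 boundaries. The difference was -32.4 percentage points (Newcombe interval -34.8 to -29.9). RAD21, the cohesin subunit, was at 349 (17.1%) against 44% of shared boundaries and 34% of all, a difference of -27 points (-29.2 to -24.6). The CTCF and cohesin shares of mid-G1-only boundaries were thus each well below those of shared ones, with intervals far from 0. On each of the 20 chromosomes the mid-G1-only boundaries had the lower share of both. With peaks counted up to 10 kb from the boundary, CTCF was at 43.8% of mid-G1-only and 84.5% of shared boundaries and RAD21 at 34.8% and 76.8%, and the difference for RAD21 was -42 points.

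YY1 was at 254 mid-G1-only boundaries (12.4%) and 31.4% of shared ones, with 24.4% over all, a difference of -19 points (-21.1 to -16.9). With the second YY1 antibody, whose peak list is shorter, the shares were 4.45% (91 boundaries) and 12%, with 9.19% over all. H3K27ac was at 175 (8.57%) against 22.8% of shared boundaries and 17.5% of all, a difference of -14.2 points (-16 to -12.3). LDB1 was the rarest mark, at 88 (4.31%) against 10.5% of shared boundaries and 8.22% of all, a difference of -6.23 points (-7.56 to -4.85). The lower share held on 20 of 20 chromosomes for YY1 and for H3K27ac and on 18 of 20 for LDB1. With peaks counted up to 10 kb from the boundary, the shares were 25.3% and 57.8% for YY1, 16.4% and 43.8% for H3K27ac and 11.2% and 25.9% for LDB1. Restricted to YY1 peaks that were also listed after auxin, the shares were 2.2% and 4.62%, a difference of -2.41 points. With so few such peaks, a difference as large as -19 points was not possible.

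None of the 5 marks was found at 1453 mid-G1-only boundaries, 71.1% (69.1% to 73%), against 35.4% of shared, 48.6% of all mid-G1 and 70.2% of asynchronous-only boundaries. A single mark was found at 172, 2 marks at 228, 3 at 92, 4 at 73 and all 5 at 25. At shared boundaries 407 had a single mark and 899 had 2, so in both classes a pair of marks was more frequent than a single one.

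**Figure D1:**
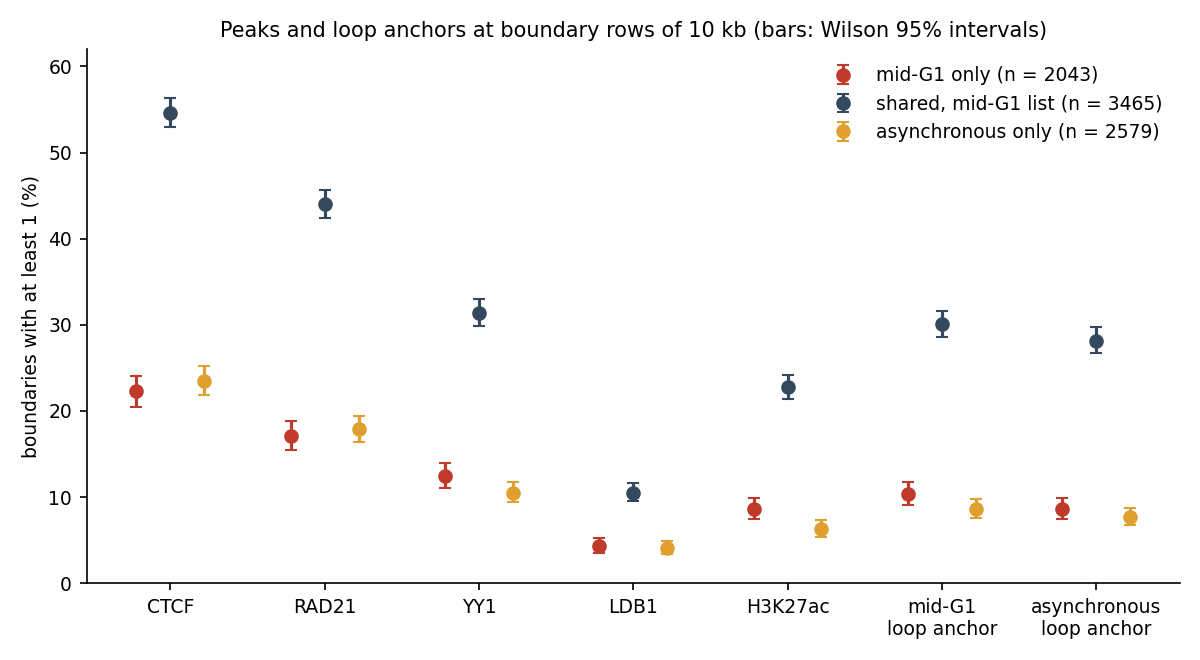
Share of boundaries with at least 1 peak of each mark (untreated asynchronous cells) or at least 1 loop anchor, for mid-G1-only, shared and asynchronous-only boundaries, with Wilson 95% intervals; the vertical axis is in percent. For every mark the mid-G1-only share is below the shared one (CTCF 22.3% and 54.6%). Its interval overlaps that of the asynchronous-only share (CTCF 23.5%) for every feature shown except H3K27ac.

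Set against asynchronous-only boundaries, which the same rule selects from the other list, the picture was different. CTCF was at 22.3% of mid-G1-only and 23.5% of asynchronous-only boundaries (difference -1.27 points, -3.69 to 1.18), and RAD21 at 17.1% and 17.9% (-0.792 points, -2.98 to 1.42). These intervals include 0 and bound any difference in CTCF or RAD21 at under 4 points in either direction. YY1 was at 12.4% and 10.5% (1.89 points, 0.0419 to 3.76), and H3K27ac at 8.57% and 6.28% (2.28 points, 0.768 to 3.84). Both of these marks of active elements were thus somewhat more frequent at mid-G1-only boundaries, YY1 with an interval that only just leaves out 0. LDB1 was at 4.31% and 4.03% (0.275 points, -0.877 to 1.47).

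Marks that are often bound together also met at mid-G1-only boundaries. Of the 455 mid-G1-only boundaries with CTCF, 322 (70.8%, 66.4% to 74.8%) also had RAD21, against 77.8% (75.8% to 79.6%) at shared boundaries. Of the 349 with RAD21, 92.3% had CTCF, against 96.5% at shared boundaries. Of the 254 with YY1, 149 (58.7%, 52.5% to 64.5%) had CTCF, against 74.7% (72% to 77.1%) of shared boundaries with YY1. YY1 at mid-G1-only boundaries thus came with CTCF less often than YY1 at shared ones, with intervals that do not overlap. At asynchronous-only boundaries with YY1 the share was 55.1% (49.2% to 60.9%), so this was not particular to mid-G1-only ones. H3K27ac was at 57.5% of the mid-G1-only boundaries with YY1 and at 62.9% of the shared ones, with intervals that do overlap (51.3% to 63.4% and 60% to 65.7%). More than 1 CTCF peak was found at 26.4% (22.5% to 30.6%) of the mid-G1-only boundaries that had any, against 36.2% (34.1% to 38.4%) of shared ones. The asynchronous-only share was 25.7% (22.4% to 29.3%).

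Sorted by CTCF, RAD21 and YY1 together, 1471 mid-G1-only boundaries (72%) had none of the 3, against 36.9% of shared, 49.9% of all mid-G1 and 71.1% of asynchronous-only boundaries. CTCF with RAD21 was the most frequent combination, at 200 (9.79%, against 18.7% of all mid-G1 boundaries), followed by all 3 at 122 (5.97%, against 13.9%), CTCF alone at 106 (5.19%, against 6.48%) and YY1 alone at 90 (4.41%, against 5.95%). CTCF with YY1 but no RAD21 was at 27 (1.32%, against 3.58%) and RAD21 alone at 12 (0.587%, against 0.508%). CTCF alone, YY1 alone and RAD21 alone thus stood closer to the level of all mid-G1 boundaries than CTCF with RAD21 and all 3 together did. A small set of 15 had RAD21 and YY1 without CTCF (0.734%, against 0.962% of all). All 15 carried H3K27ac (79.6% to 100%) and 11 carried LDB1 (48% to 89.1%). Of the 38 shared boundaries with this combination, 32 carried H3K27ac (84.2%, 69.6% to 92.6%) and 19 LDB1 (50%, 34.8% to 65.2%). The intervals of both marks overlap between the classes.

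Peak frequency around the boundaries showed how much of each level was local. At mid-G1-only boundaries CTCF was in 22.3% of the boundary bins and in 16.6% of the 10 kb bins 100 to 200 kb away, a ratio of 1.34. At shared boundaries the same values were 54.6% and 31.4%, a ratio of 1.74, and at asynchronous-only boundaries 23.5% and 15.3%, a ratio of 1.54. The surroundings of mid-G1-only boundaries were thus poorer in CTCF as well, and the rise at the boundary itself was smaller. RAD21 gave 17.1% and 11.4% at mid-G1-only boundaries (ratio 1.5), against 44% and 22.9% at shared ones (1.93). For YY1 the ratios were 1.16 at mid-G1-only and 1.36 at shared boundaries, and for H3K27ac 1.18 and 1.32. LDB1 was the exception in both classes, with fewer peaks at the boundary than in the surroundings, 4.31% and 5.39% at mid-G1-only boundaries and 10.5% and 11.9% at shared ones. At asynchronous-only boundaries H3K27ac was also lower at the boundary than around it, 6.28% and 6.79%.

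**Figure D2:**
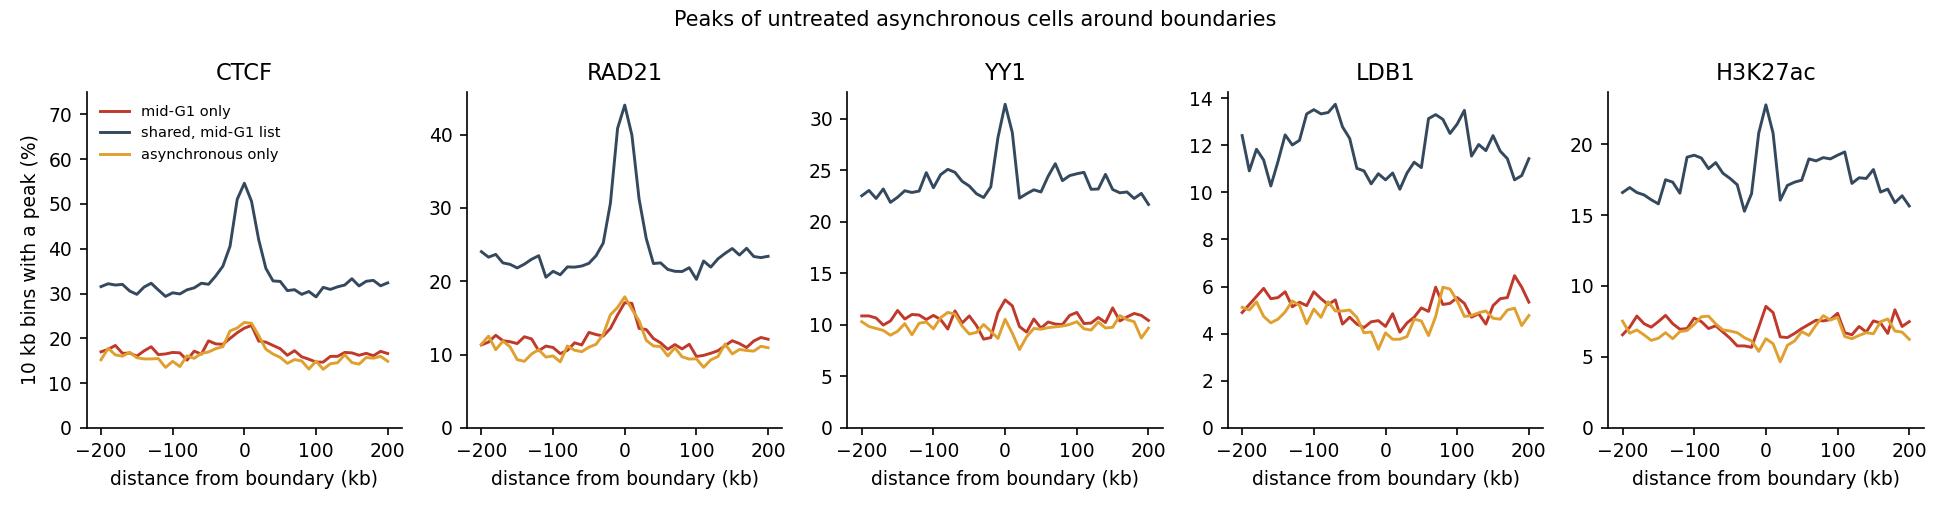
Share of 10 kb bins with a peak of each mark against the distance from the boundary in kb, for mid-G1-only, shared and asynchronous-only boundaries; each panel has its own vertical scale in percent that starts at 0. CTCF and RAD21 rise at the centre in all 3 classes, least at mid-G1-only boundaries (CTCF 22.3% at the centre and 16.6% in the surroundings), and LDB1 does not rise in any.

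The nearest peak was correspondingly distant. The median distance from a mid-G1-only boundary to a CTCF peak was 20.6 kb (quartiles 6.05 and 72.4 kb), against 4.57 kb from a shared boundary. From an asynchronous-only boundary it was 19.2 kb. For mid-G1-only and shared boundaries the RAD21 medians were 31.6 and 6.16 kb and the YY1 medians 72.5 and 11.4 kb. Those for H3K27ac were 197 and 20.9 kb and those for LDB1 211 and 43.9 kb. The farthest from CTCF among those with no mark and no loop anchor were chr1:49420001-49430000 (1460 kb), chr1:49550001-49560000 (1330 kb) and chr4:91820001-91830000 (1190 kb). The first 2 are the edges of a single auxin-labelled domain of 130 kb. No mid-G1 or asynchronous loop spans any of these 3 positions.

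Marks varied with the distance to the nearest asynchronous boundary, and each of the 5 was least frequent beyond 200 kb. CTCF was at 29.5% of the mid-G1-only boundaries at 20 kb, 24.1% above that and up to 50 kb, 24.4% up to 100 kb, 27.5% up to 200 kb and 13% (10.5% to 15.9%) beyond 200 kb. RAD21 followed with 22.3%, 17.6%, 18.7%, 22.2% and 10.2% over the same classes. YY1 and H3K27ac had another order. YY1 was at 11.9%, 14%, 15.6%, 18.5% and 6.4%, highest between 100 and 200 kb, and H3K27ac at 6.58%, 9.01%, 14%, 12.9% and 3.94%, highest between 50 and 100 kb. Intervals of neighbouring classes up to 200 kb overlapped for each of these 4 marks. For H3K27ac the class at 20 kb (4.35% to 9.85%) overlapped that beyond 200 kb (2.66% to 5.8%) and lay below that between 50 and 100 kb (10.6% to 18.2%). LDB1 lay between 4.73% and 6.03% up to 200 kb and at 2.13% beyond. Distance is the quantity the rule used, so these are descriptions.

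**Figure D3:**
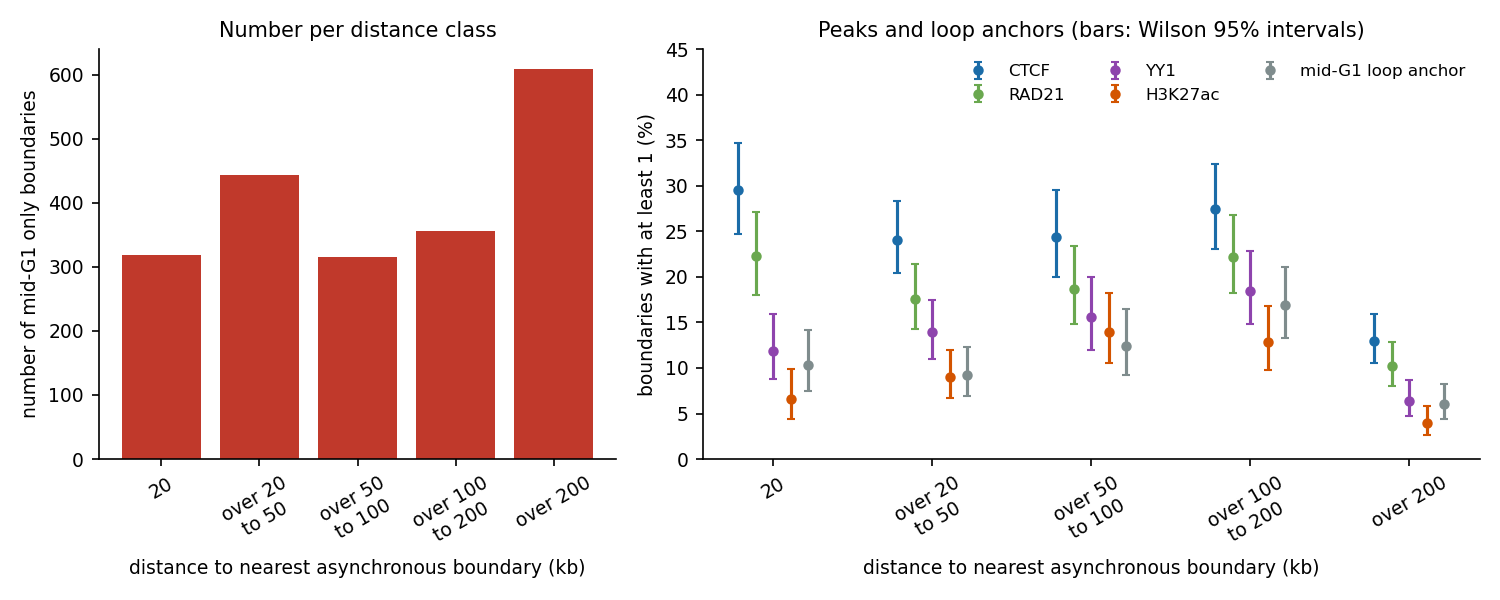
Left, number of mid-G1-only boundaries by distance to the nearest asynchronous boundary in kb; right, share of them in percent with a CTCF, RAD21, YY1 or H3K27ac peak or a mid-G1 loop anchor, with Wilson 95% intervals. All 5 features are lowest beyond 200 kb, the class with the most boundaries (609), where CTCF is at 13%.

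Of the 5 mid-G1-only boundaries farthest from any asynchronous boundary, 4 had no peak of any mark, near the 71.1% of all mid-G1-only boundaries without one. The pair on chromosome 5, chr5:81880001-81890000 (3830 kb away) and chr5:81760001-81770000 (3710 kb), are the edges of an auxin-labelled domain of 120 kb. The pair on chromosome 3, chr3:14500001-14510000 and chr3:14670001-14680000 (3810 kb), edge an untreated-labelled domain of 170 kb. The second of these is the exception, with 1 CTCF, 1 RAD21 and 2 YY1 peaks and the anchor of 1 mid-G1 loop of 195 kb. The fifth, chrX:142680001-142690000 (3720 kb), edges an untreated-labelled domain of 220 kb.

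Loop anchors followed the marks. A mid-G1 loop anchor was at 210 mid-G1-only boundaries (10.3%, 9.04% to 11.7%), against 30.1% of shared boundaries and 22.7% of all, a difference of -19.8 points (-21.8 to -17.8). With anchors counted up to 10 kb from the boundary the shares were 21.4% and 60.8%. At asynchronous-only boundaries the share with a mid-G1 anchor was 8.61%, and the interval of the difference included 0 (1.67 points, -0.0191 to 3.4). An asynchronous anchor was at 176 mid-G1-only boundaries (8.61%), against 28.1% of shared, 20.9% of all mid-G1 and 7.68% of asynchronous-only boundaries. Positions absent from the asynchronous boundary list could thus still anchor an asynchronous loop. With CTCF and RAD21 but no YY1, 42% (35.4% to 48.9%) of mid-G1-only boundaries anchored a mid-G1 loop, against 53% (49.6% to 56.3%) of shared ones with those marks. With all 3 marks the shares were 59% (50.1% to 67.3%) and 67.5% (63.8% to 71%). With none of the 3 they were 1.97% and 4.77%. With CTCF and RAD21 and with all 3, the gap in points was thus smaller than over all boundaries. With none of the 3, a gap of 19.8 points was not possible, since the shared share was only 4.77%. Whether the marks account for the gap in anchors was not tested.

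Some anchors were, like the boundaries, found in mid-G1 only. Of the 210 mid-G1-only boundaries with a mid-G1 anchor, 35 (16.7%, 12.2% to 22.3%) had no asynchronous anchor within 10 kb, against 95 of 1043 shared boundaries (9.11%, 7.51% to 11%). Of these 35, 25 had CTCF, 22 RAD21, 13 YY1, 11 H3K27ac and 0 LDB1 (0% to 9.89%). The LDB1 interval includes the 4.31% of all mid-G1-only boundaries. Marks at the other boundaries with a mid-G1 anchor were not counted here, so these values do not set the 35 apart. Loops and boundaries come from the same maps, so these counts are not independent of the rule.

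The mid-G1 list held 360 loops with an anchor at a mid-G1-only boundary, 2.54% of its 14155 loops. Their median length was 220 kb, against 260 kb for the 1808 loops with an anchor at a shared boundary and none at a mid-G1-only one, 165 kb for the 11987 loops with no anchor at a boundary and 180 kb over all mid-G1 loops. CTCF was at both anchors of 68.9% (63.9% to 73.5%) of the 360, against 78.7% (76.7% to 80.5%), 63.8% (62.9% to 64.7%) and 65.8% in the same order. In length and in CTCF the loops at mid-G1-only boundaries thus lay between those at shared boundaries and those at none, the CTCF interval overlapping that of the loops at none. YY1 was at both anchors of 28.3% (23.9% to 33.2%), against 23.6% (21.7% to 25.6%) at shared boundaries and 24.6% over all, with overlapping intervals. Of the 360, 217 (60.3%, 55.1% to 65.2%) were also in the asynchronous loop list, against 64.3% (62.1% to 66.5%) of those at shared boundaries and 62.6% over all. Of the 360, 28 (7.78%) joined a mid-G1-only to a shared boundary, and 6 had both anchors at mid-G1-only boundaries.

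The mid-G1-only boundaries with the most marks show the other end of the range. At chr12:71330001-71340000, 70 kb from an asynchronous boundary, the untreated lists held 1 CTCF, 1 RAD21, 2 YY1, 1 LDB1 and 1 H3K27ac peak, and 6 mid-G1 loops of 90, 120, 220, 245, 480 and 510 kb were anchored there, against 1 asynchronous loop. This position edges an auxin-labelled domain of 500 kb. At chr4:41410001-41420000, 60 kb away, there were 2 CTCF, 2 RAD21, 2 YY1, 1 LDB1 and 1 H3K27ac peak and 4 mid-G1 loops of 100 to 240 kb. The other 3 with all 5 marks named here, chr7:28230001-28240000, chr4:34720001-34730000 and chr5:115790001-115800000, anchored 3, 2 and 2 mid-G1 loops, and 2, 1 and 5 asynchronous ones. At chr4:41410001-41420000 there were 2 asynchronous loop anchors. Ties in the number of marks were broken by the number of mid-G1 loops, and the mid-G1 list is the longer one (14155 loops against 12738). Counts of mid-G1 and asynchronous anchors at these 5 positions therefore cannot be compared. After auxin, the YY1 list held a peak only at the last of these 5 positions, 2 peaks against 3 without auxin, while CTCF, RAD21 and H3K27ac peaks were listed at all 5.

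YY1 without CTCF was found at 105 mid-G1-only boundaries (5.14%, 4.26% to 6.18%), against 7.97% of shared, 6.92% of all mid-G1 and 4.73% of asynchronous-only boundaries. With the most mid-G1 loops among them was chr15:88650001-88660000, whose nearest CTCF peak was 9.71 kb away and which had 1 YY1 and 1 H3K27ac peak and no RAD21. It anchored 4 mid-G1 loops, of 50, 95, 250 and 385 kb, and 4 asynchronous ones. A YY1 peak was also listed there after auxin, with the second antibody and among the prometaphase peaks. At chr1:69540001-69550000 there were 2 YY1, 3 RAD21 and 5 LDB1 peaks and 2 loops of 190 and 260 kb, and after auxin no YY1 peak, with 3 RAD21 and 4 LDB1 peaks. At chr13:91300001-91310000, with 2 YY1, 2 RAD21 and 3 LDB1 peaks and 2 loops of 205 and 290 kb, the YY1 list after auxin again held none. The last 2 named by the same rule, chr1:78190001-78200000 and chr12:71550001-71560000, each had 1 YY1 and 1 H3K27ac peak and 2 mid-G1 loops. The former also had 1 RAD21 peak, and no YY1 peak was listed there after auxin. The latter also had 1 LDB1 peak, and 1 YY1 peak was listed there after auxin. Genes at these positions were not analysed here.

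Labels of the domains differed between mid-G1-only and shared boundaries by more points than any mark did (label both, -45.9 points, -48.3 to -43.4). Domains and boundaries come from the same maps, so the labels are not independent of the rule. The criteria for a label were not stated in any source used. Of the 2043, 706 (34.6%) edged auxin-labelled domains only, 571 (27.9%) untreated-labelled domains only, 34 (1.66%) a domain of each label and 732 (35.8%) at least 1 domain labelled both. Over all mid-G1 boundaries these shares were 18.8%, 14.9%, 1.54% and 64.7%. Labels of a single treatment were thus found at 1277 mid-G1-only boundaries (62.5%, 60.4% to 64.6%), against 582 shared ones (16.8%, 15.6% to 18.1%). At asynchronous-only boundaries the share was 57.2% (55.3% to 59.1%), so a high share was not particular to mid-G1-only ones. Against asynchronous-only boundaries the label both differed by -5.04 points (-7.84 to -2.22). The label both grew rarer with distance, at 57.1%, 50.2%, 38.1%, 25.3% and 19.2% of mid-G1-only boundaries over the 5 distance classes.

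Marks were more frequent where the label was both than where it was auxin or untreated alone. CTCF was at 18.1% of the mid-G1-only boundaries with the auxin label, 14.9% of those with the untreated label and 31.6% of those with the label both, against 36.7%, 36.1% and 58.6% of the shared boundaries with the same labels. The 34 mid-G1-only boundaries with a domain of each label had CTCF at 32.4% (19.1% to 49.2%) and RAD21 at 29.4% (16.8% to 46.2%), with intervals that span the values of the label both (31.6% and 25.5%). Within each of the labels auxin, untreated and both, mid-G1-only boundaries thus had less CTCF than shared ones, by -18.5 points (-24.5 to -12.7), -21.2 points (-27.9 to -14.7) and -27 points (-30.8 to -23.1). The other marks and the mid-G1 loop anchors were likewise lower within each of these 3 labels, except that the interval for LDB1 under the untreated label included 0 (-2.09 points, -5.5 to 0.39).

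Between the labels auxin and untreated, no difference in marks was detectable among mid-G1-only boundaries. The auxin label minus the untreated label was 3.24 points for CTCF (-0.886 to 7.28), 3.47 points for RAD21 (-0.111 to 6.97), 0.133 points for YY1 (-3.11 to 3.26), 0.981 points for LDB1 (-0.931 to 2.82) and 0.203 points for H3K27ac (-2.46 to 2.75). All of these intervals include 0. YY1 in untreated cells was at 9.07% of the boundaries with the auxin label and at 8.93% of those with the untreated label.

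**Figure D4:**
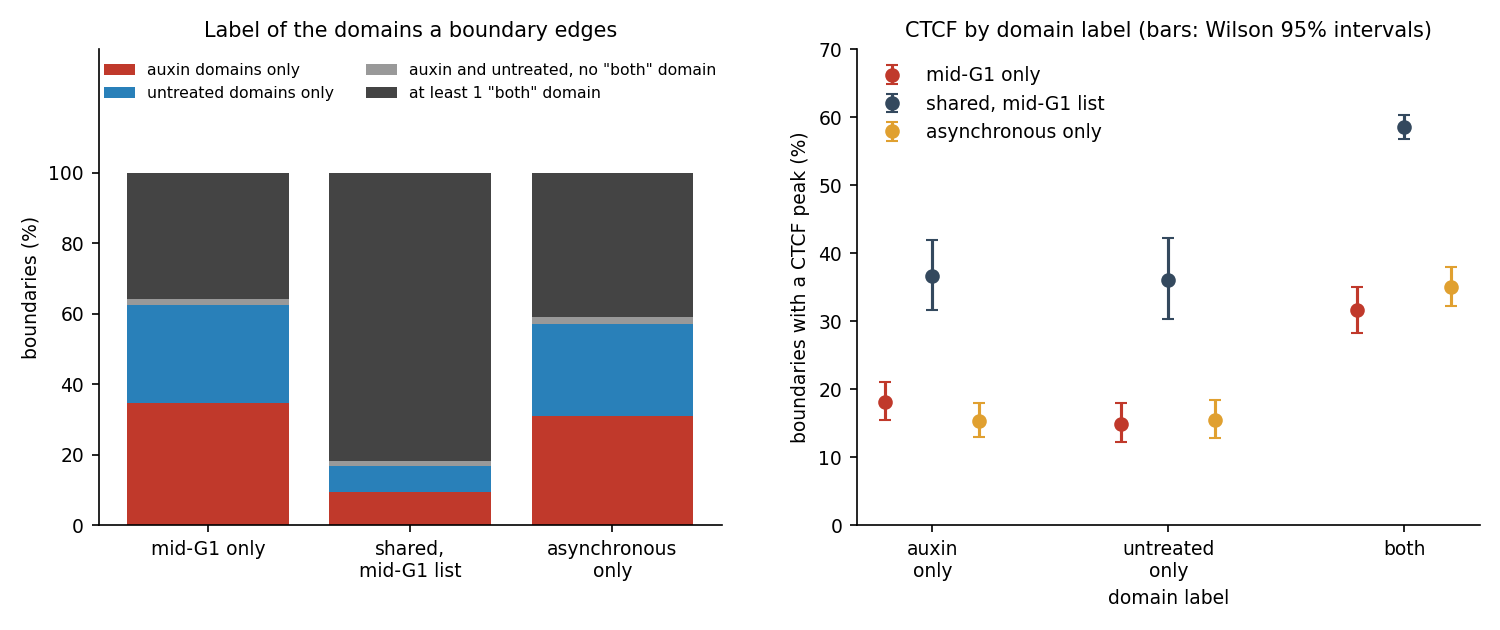
Left, share of mid-G1-only, shared and asynchronous-only boundaries in percent by the label of the domains they edge; right, share of boundaries with a CTCF peak in percent by label, with Wilson 95% intervals. Auxin and untreated labels alone make up 62.5% of mid-G1-only, 16.8% of shared and 57.2% of asynchronous-only boundaries. CTCF is lower at mid-G1-only than at shared boundaries under each label.

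Domains with mid-G1-only boundaries at both edges were shorter than the others. The median length was 200 kb (quartiles 150 and 270 kb) for the 679 mid-G1 domains with both edges at mid-G1-only boundaries. It was 270 kb (200 and 370 kb) for the 1593 with 1 such edge and 280 kb (210 and 390 kb) for the 2564 with none. In the asynchronous maps, 1264 mid-G1-only boundaries (61.9%) lay inside a domain, with a median length of 340 kb for the shortest domain around each, against 300 kb over all asynchronous domains. A longer domain covers more positions. Of these boundaries, 549 (43.4%) lay in the middle 50% of that domain. The other 779 (38.1%) lay in no asynchronous domain. Loops that span a mid-G1-only boundary numbered 1.09 on average in the mid-G1 list and 0.924 in the asynchronous list, and 53.9% of mid-G1-only boundaries were spanned by no mid-G1 loop and 58.6% by no asynchronous loop. At shared boundaries the means were 1.4 and 1.26.

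Auxin for 4 h, which degrades YY1, left few YY1 peaks at mid-G1-only boundaries and most peaks of the other marks. In these asynchronous cells 47 of 345 untreated YY1 peaks at mid-G1-only boundaries (13.6%, 10.4% to 17.6%) had a counterpart after auxin, against 10.5% (9.04% to 12.1%) at shared boundaries. The share over all 41163 YY1 peaks was 7.55% (7.3% to 7.81%), so YY1 peaks at mid-G1-only boundaries were kept more often than YY1 peaks at large, and not detectably more than those at shared boundaries (3.16 points, -0.438 to 7.43). With the second antibody 28 of 108 (25.9%, 18.6% to 34.9%) were kept, against 24.1% at shared boundaries and 19.6% (18.8% to 20.4%) over all its peaks, so with it no difference from YY1 peaks at large was detectable.

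Counted by position, YY1 was at 49 mid-G1-only boundaries with auxin (4.03% of all mid-G1 boundaries had such a peak) and at 254 without it. Of the 46 with YY1 in both lists, 41 (89.1%, 77% to 95.3%) had H3K27ac in untreated cells, against 105 of the 208 with YY1 in the untreated list only (50.5%, 43.7% to 57.2%). CTCF was at 67.4% (53% to 79.1%) and 56.7% (49.9% to 63.3%), with overlapping intervals. Mid-G1-only boundaries that kept YY1 were thus richer in H3K27ac than those that did not. The same comparison was not made at other boundaries, so whether this is particular to mid-G1-only ones was not tested. The second antibody also had a peak at 43 of the 46 and at 47 of the 208.

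CTCF peaks were kept in 93.3% (570 of 611), RAD21 peaks in 94.2% (409 of 434) and LDB1 peaks in 88.2% (97 of 110), against 94.6%, 94.5% and 85.3% at shared boundaries. The intervals of these 3 differences include 0. H3K27ac peaks were kept in 91.7% (189 of 206), against 95.4% at shared boundaries, a difference of -3.65 points (-8.36 to -0.254), and 91.8% of all H3K27ac peaks were kept. For CTCF, RAD21, YY1 and LDB1 the peaks of both lists have the same start and end, as lists drawn from a common set would, whereas no H3K27ac peak does. The H3K27ac value therefore depends on how overlap is counted, and with peaks cut to 200 bp around their midpoint 64.1% were kept.

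In the other direction, 31 of 128 LDB1 peaks listed at mid-G1-only boundaries after auxin had no untreated counterpart (24.2%, 17.6% to 32.3%). At shared boundaries the share was 14.1% (11.2% to 17.7%), a difference of 10.1 points (2.58 to 18.7), and over all LDB1 peaks after auxin it was 12.5%. For the other 4 marks the interval of this difference included 0. LDB1 was at 105 mid-G1-only boundaries with auxin (8.57% of all mid-G1 boundaries had such a peak) and at 88 without it. RAD21 peaks with no untreated counterpart were 21% at mid-G1-only and 18.9% at shared boundaries, with 26.4% over the whole list, and those of CTCF 12.7% and 11.1%, with 15% over the whole list. RAD21 was at 401 mid-G1-only boundaries with auxin (37.9% of all mid-G1 boundaries) and at 349 without it, CTCF at 477 (43.9% of all) and 455, and H3K27ac at 175 (18% of all) and 175.

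Peaks listed only after auxin were not detectably more frequent at boundaries with the auxin label. A RAD21 peak in the auxin list and none in the untreated list was found at 22 of 706 (3.12%, 2.07% to 4.67%) mid-G1-only boundaries with the auxin label, at 16 of 571 (2.8%, 1.73% to 4.5%) with the untreated label and at 24 of 732 (3.28%) with the label both. For LDB1 the counts were 4 (0.567%), 6 (1.05%) and 14 (1.91%). A YY1 peak in the untreated list and none in the auxin list was found at 55 of 706 (7.79%), at 40 of 571 (7.01%) and at 111 of 732 (15.2%). Of the boundaries that had YY1 without auxin, these were 55 of 64, 40 of 51 and 111 of 133. The higher share of the label both thus went with its larger number of boundaries with YY1. Shared boundaries were not counted in this way. Between the auxin and untreated labels the intervals of the shares over all boundaries of a label overlapped for RAD21, LDB1 and YY1.

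The lists of YY1 peaks by the stage at which they emerge after mitosis put fewer peaks at mid-G1-only boundaries than at shared ones for most stages. A peak of the prometaphase list was at 17 mid-G1-only boundaries (0.832%, against 0.98% of all mid-G1 boundaries), of the anaphase and telophase list at 55 (2.69%, against 6.21%), of the early G1 list at 90 (4.41%, against 7.68%), of the mid-G1 list at 21 (1.03%, against 1.94%) and of the late G1 list at 2 (0.0979%, against 0.127%). Any stage was found at 151 (7.39%), against 18% of shared and 5.58% of asynchronous-only boundaries. The difference from shared boundaries was -0.236 points (-0.743 to 0.34) for the prometaphase list and -0.0464 points (-0.252 to 0.225) for the late G1 list, both with intervals that include 0. It was -5.59 points (-6.74 to -4.41) for anaphase and telophase, -5.21 points (-6.51 to -3.85) for early G1 and -1.45 points (-2.13 to -0.741) for mid-G1. Of the 54 prometaphase peaks at mid-G1 boundaries, 17 (31.5%, 20.7% to 44.7%) were at mid-G1-only ones, which make up 37.1% of mid-G1 boundaries, a share inside this interval. Of the anaphase and telophase peaks 15.9% (12.6% to 19.9%) were at mid-G1-only ones, an interval that does not overlap that of the prometaphase peaks. The shares of the early G1 peaks (21.6%, 18.3% to 25.4%), the mid-G1 peaks (20.5%, 14.1% to 28.9%) and the late G1 peaks (28.6%, 8.22% to 64.1%) have intervals that do overlap it. All 17 prometaphase peaks overlapped a YY1 peak of untreated asynchronous cells, 16 overlapped an H3K27ac peak and 1 a CTCF peak. In the whole prometaphase list of 681 peaks, 98.4% overlapped such a YY1 peak, 91% H3K27ac and 19.7% CTCF. Against asynchronous-only boundaries, mid-G1-only boundaries had more peaks of the prometaphase list (0.561 points, 0.136 to 1.08) and of the early G1 list (1.3 points, 0.207 to 2.45), while for the mid-G1 list the interval included 0 (0.33 points, -0.207 to 0.926).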

How the data were processed

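Boundaries, domains and loops were deposited by the authors as positions in mm9 without scores, merged over auxin and untreated Micro-C samples, and ChIP-seq peaks as 1 list per condition. For these samples MACS2 2.2.7, Bowtie2 and deepTools 3.5.1 are listed, per the submitters' processing notes. What called boundaries, domains and loops, with which thresholds, and how replicates were combined was not stated in any source used, and the depth of the Micro-C and ChIP-seq libraries is unknown. RNA-seq counts per gene, which the authors deposited as whole numbers, served for the marker check and were scaled here to CPM, per total count. Salmon 0.13.1 is listed for them, per the submitters' processing notes.

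Positions were intersected with bedtools 2.31.1 (Python 3.11.15, pandas 2.3.3), an overlap of at least 1 bp counting as shared. Shares have Wilson and differences Newcombe 95% intervals. No test between conditions was possible with 1 list each. A boundary took the labels of all domains with an edge at its start. The intersection was tested on simulated positions. The members, the lists and the markers were chosen with earlier results of these data known. Named positions were the 5 farthest from an asynchronous boundary, the 5 with the most marks (ties by number of loops, then of peaks), the 5 with YY1 and no CTCF that anchor the most mid-G1 loops, the 3 without marks or anchors farthest from CTCF, and 3 on each side of the threshold. Stages are those the authors' lists name. Other assays were not used here.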

Additional observations from a re-analysis of the deposited data

How the results depend on the processing

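Differences below are mid-G1-only minus shared, in percentage points, and kept their sign in all settings run. Of 68 values under other settings, 39 stayed within the counting error (counts of boundaries within 1.5 times) and 29 did not, for which the cause was not tested. The 39 include values that could not change. These are those for the commonest boundary length and those for other overlap rules in CTCF, RAD21, YY1 and LDB1 retention. With no widening the rule kept 3183 boundaries, and the differences were -28.9 for CTCF and -16.3 for H3K27ac. With 25 kb, YY1 differed by -16.7, H3K27ac by -11.7 and mid-G1 anchors by -17.1. With 50 kb the rule kept 1279, with -29.7 for CTCF, -24 for RAD21, -16.1 for YY1, -11.2 for H3K27ac and -15.8 for anchors. With boundaries that edge a domain labelled both alone, a setting chosen after seeing the data, the class held 732, with -27 for CTCF, -21.7 for RAD21, -16.2 for YY1, -4.3 for LDB1, -11.7 for H3K27ac and -16.6 for anchors. Overlap within 10 kb of the boundary gave larger differences, -40.7 for CTCF, -42 for RAD21, -32.5 for YY1, -14.7 for LDB1, -27.4 for H3K27ac and -39.4 for anchors. YY1 differed by -2.41 with peaks also listed after auxin (2.2% and 4.62%) and by -7.52 with the second antibody (4.45% and 12%). H3K27ac differed by -12 with peak midpoints. H3K27ac retention after auxin was 64.1% with peaks of 200 bp.

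No paired analysis was possible because the lists are merged over replicates, and for the same reason no replicate was left out. All boundaries are 10 kb long, so restricting them to the commonest length changed nothing. For CTCF, RAD21, YY1 and LDB1, other overlap rules gave the same retention, and kept peaks have the same start and end in both lists. Unknown depth and thresholds limit every comparison between lists, since absence from a list is absence at that list's threshold.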
